A study of Mus musculus with 3 samples.

Results

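H3K4me3 was described here at the starts of 45 genes of the Fanconi pathway and of general DNA repair, taken by name from the 21728 protein-coding genes of the GENCODE vM21 annotation of the mouse genome (build mm10). The genes fall into 11 roles, from the Fanconi core complex to the checkpoint kinases. They were not picked by their H3K4me3 values, but the list was made with earlier results of these data known. Chromatin came from whole adult testis of (C57BL/6J x CAST/Eij)F1 males whose Prdm9 genotype was Humanized/CAST, that is, 1 allele with the humanised zinc finger array and 1 from the CAST strain. There were 2 ChIP libraries with an H3K4me3 antibody (replicates 1 and 2) and 1 input library of the same genotype and tissue without antibody. All 3 libraries were of this single condition, so nothing below compares genotypes, ages or treatments. The study's methods describe 1 testis from each of 2 littermates, whereas the description deposited with the series speaks of both testes of 1 mouse. The spread between the replicates may therefore be that of animals or only that of testes. A whole testis holds germ cells of every stage together with Sertoli and Leydig cells, and a lower H3K4me3 signal in fewer cells cannot be told apart from a lower signal in each cell.

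H3K4me3 is the trimethylated form of lysine 4 of histone H3. It marks the nucleosomes around active or poised transcription starts, and in meiotic cells the methyltransferase PRDM9 also lays it down at the sites where recombination begins. Peaks at gene starts are for the most part independent of PRDM9. The Fanconi pathway removes crosslinks that tie the strands of DNA to each other: a core complex attaches ubiquitin to the FANCD2 and FANCI proteins, and nucleases and homologous recombination then cut and mend the site. Recombination, end joining and mismatch repair are also used in the testis, where spermatocytes make and repair programmed DNA breaks.

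Stretches of 300 bases at 3 genes that mark the range of the values are shown first, 5′ to 3′ on the strand of the gene, with CpG dinucleotides in capitals. Slx4 had the highest enrichment of the 45 genes and is shown around its peak centre. Fanca had the lowest enrichment, and Brca1 was the gene with no narrow peak centre within 1 kb of a start. Both are shown as the RefSeq promoter window of build GRCm38.p6, which runs from 250 bases before to 50 bases after the start.
Slx4 (chr16:4003424-4003723, minus strand): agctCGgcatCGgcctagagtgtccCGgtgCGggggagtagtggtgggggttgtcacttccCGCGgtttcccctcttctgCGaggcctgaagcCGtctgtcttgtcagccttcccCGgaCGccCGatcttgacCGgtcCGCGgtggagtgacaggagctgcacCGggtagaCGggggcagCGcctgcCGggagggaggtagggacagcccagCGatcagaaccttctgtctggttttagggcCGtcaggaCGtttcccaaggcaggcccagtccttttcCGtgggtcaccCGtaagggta
Fanca (chr8:123318527-123318826, minus strand): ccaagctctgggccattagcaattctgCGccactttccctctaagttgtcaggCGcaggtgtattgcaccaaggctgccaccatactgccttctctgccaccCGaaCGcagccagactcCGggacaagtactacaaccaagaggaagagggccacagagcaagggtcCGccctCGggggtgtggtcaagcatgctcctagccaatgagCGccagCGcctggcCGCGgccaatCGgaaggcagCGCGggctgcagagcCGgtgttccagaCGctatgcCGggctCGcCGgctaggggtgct
Brca1 (chr11:101551906-101552205, minus strand): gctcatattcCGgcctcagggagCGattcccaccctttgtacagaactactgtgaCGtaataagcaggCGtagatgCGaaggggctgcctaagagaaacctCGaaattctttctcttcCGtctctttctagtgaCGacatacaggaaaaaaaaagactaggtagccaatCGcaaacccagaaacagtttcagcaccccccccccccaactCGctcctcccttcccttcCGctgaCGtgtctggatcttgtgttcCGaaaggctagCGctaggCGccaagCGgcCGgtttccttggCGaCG

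The Slx4 stretch held 23 CpG and 64.7% G+C. The Fanca and Brca1 windows each held 19 CpG, with 63.0% and 53.7% G+C. The Fanca and Brca1 windows held more CpG than the medians of 7 over all RefSeq promoter windows and 13 over those of protein-coding genes. They held fewer than the median of 23 over the windows matched to the 45 genes. The Slx4 stretch was taken around its peak and is no promoter window, and the window at the RefSeq start of Slx4 held 4.

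A narrow peak is the authors' called centre of enrichment, and the values at it are the fragments of each library that cover the centre and an enrichment over the local background estimated jointly from all libraries, with 0 for no enrichment. Of the 45 genes, 44 had a narrow peak centre within 1 kb of a transcript start, against 77.4% of all protein-coding genes. A broad peak, the merged run of enriched bins of 100 bp, lay over a start of 45 of the 45 genes, against 76.5% of all protein-coding genes. For both counts any annotated start was enough, so genes with more starts had more chances, and the number of starts was not matched. The narrow peak of highest enrichment within 1 kb stands for a gene in what follows. These 44 peaks all lay in the regions that the authors list as independent of PRDM9, as did 91.8% of the start peaks of all protein-coding genes. Replicate 1 gave a lowest value of 289, a median of 1119.5 and a highest of 2786 fragments, and replicate 2 gave 377, 1157 and 2786. The input gave 8 to 35 fragments at the same centres, with a median of 22. No ChIP value of any of the 44 genes overlapped the input values. The peaks had been called for ChIP over input, so this separation was largely built in and is no separate evidence. The caller's p-value was written as 0 for all 44, so it does not order them.

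The enrichment of the 44 genes ran from 15.9 to 150.2 with a median of 53.5 and an interquartile range of 38.2 to 74.9. Over the 16822 protein-coding genes with a start peak the median was 37.6 and the interquartile range 14.7 to 65.3. The median gene of the 44 stood at the percentile 64.5 among all genes with a peak. Above the median of all genes stood 34 of the 44, above the upper quartile 17 and below the lower quartile 0. A further 39 genes of repair pathways on a fixed list, such as Brca2, Atm and Parp1, had a narrow and a broad peak in 39 of 39 cases, with a median enrichment of 56.0 and a range of 26.8 to 95.5. The 45 genes and these other repair genes thus lay close to each other.

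**Figure D1:**
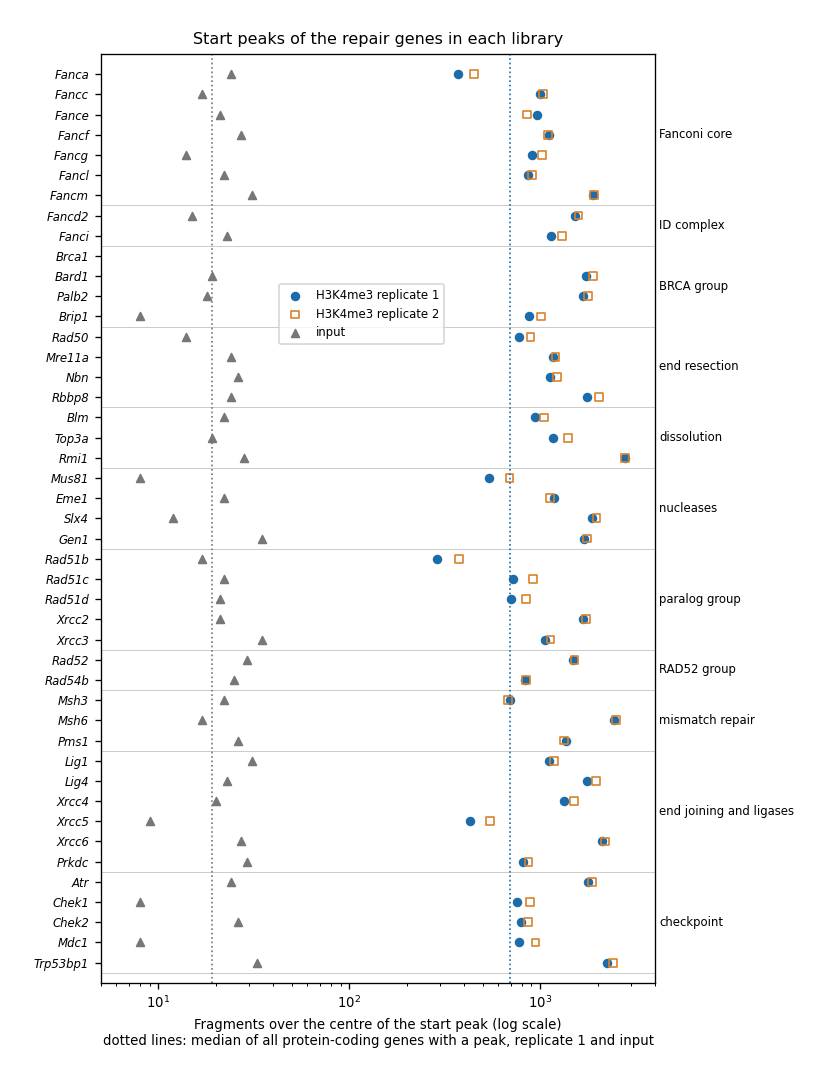
Fragments over the centre of the start peak (log scale) in H3K4me3 replicate 1 (filled circles), replicate 2 (open squares) and the input (triangles) for each of the 45 genes, grouped by role, with dotted lines at the replicate 1 and input medians of all protein-coding genes with a peak (695 and 19). The ChIP values of 289 to 2786 stand apart from the input values of 8 to 35 for every gene with a peak, and Brca1 has none. The peaks were called for ChIP over input, so this separation was largely built in.

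The Fanconi core complex assembles around the crosslink and acts as the ubiquitin ligase. Its 7 genes had a median enrichment of 40.5, near the median of all genes. Fanca, a structural subunit, had 371 and 448 fragments in the replicates over 24 of input, with an enrichment of 15.9, the lowest of all. Its partner Fancg had 911, 1021 and 14 fragments and an enrichment of 64.8, the highest of the core genes. Fancc had 1000 and 1029 ChIP fragments over 17 of input (56.1), Fance 957 and 855 over 21 (40.5), and Fancf, which bridges the subcomplexes, 1109 and 1097 over 27 (38.3). The ligase subunit Fancl itself had 867 and 910 fragments over 22 of input, an enrichment of 37.9. Fancm, the translocase that anchors the complex on DNA, had the most fragments of the group, 1895 and 1910 over 31 of input (57.7). The 2 replicates ranked Fanca lowest and Fancm highest alike.

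The ID complex is the substrate of that ligase. Fancd2 had 1516 and 1588 ChIP fragments with 15 in the input and an enrichment of 97.3, among the 5 highest. Its partner Fanci had 1141 and 1300 over 23 (49.8).

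Genes of the BRCA group link the crosslink to homologous recombination. Bard1, the RING partner of BRCA1, had 1729 and 1891 fragments over 19 of input and an enrichment of 89.6. Palb2, which joins BRCA1 to BRCA2, had 1672 and 1776 over 18 (90.1). The helicase gene Brip1 had fewer fragments, 876 and 1005, but only 8 in the input, and its enrichment was 111. All 3 stood above the percentile 90 of all genes with a peak. Their median (90.1) was the highest of the 11 roles, and it leaves out Brca1, which had no centre within 1 kb.

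Brca1 itself was the exception to the count of narrow peaks, and its place in the BRCA group is a matter of distance. Its nearest centre lay at position 101552987 of chromosome 11, 1032 bp upstream of the Brca1 start at 101551955, while the farthest centre that stood for another of the genes was that of Xrcc3, 535 bp from its start. Replicate 1 had 887 fragments over that centre, replicate 2 had 1052 and the input 18, with an enrichment of 50.6. The broad peak around it was 8700 bp wide and covered the starts of both Brca1 and Nbr1, the autophagy receptor gene that is read in the other direction from a start 194 bp away. H3K4me3 covered the Brca1 start, then, but its summit was not within 1 kb.

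The end resection genes make the overhangs on which recombination begins. The 3 genes of the MRN complex had enrichments of 56.0 (Rad50, 778 and 890 fragments over 14), 46.2 (Mre11a, the nuclease, 1160 and 1203 over 24) and 42.4 (Nbn, 1130 and 1220 over 26). Rbbp8, which encodes the CtIP protein that starts resection, had 1753 and 2028 over 24 (74.0), above the MRN genes in both replicates.

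Dissolution takes apart joined DNA molecules without crossing over. The helicase gene Blm had 937 and 1047 ChIP fragments over 22 (42.3) and the topoisomerase gene Top3a 1172 and 1398 over 19 (63.6). Rmi1, whose protein stabilises the pair, had the most fragments of the 44 genes, 2786 in each replicate over 28 of input, and an enrichment of 93.6. This peak also showed a limit of the broad calls. Its centre, at position 58401864 of chromosome 13, lay in a gap of 1400 bp between a broad peak of 2200 bp and another of 2100 bp, and Rmi1 counts as having a broad peak only through the second, which covers a start farther downstream. Of the 13523 narrow peaks in the whole table with a p-value written as 0, 199 lay like this one in no broad peak.

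The structure-specific nucleases cut crosslinked and joined DNA. Slx4, the scaffold on which several of them dock, had 1861 and 1970 fragments over 12 of input. Its enrichment of 150.2 was the highest of the 44 and stood at the percentile 99.4 of all genes with a peak. The centre, at position 4003574 of chromosome 16, lay 178 bp downstream of a protein-coding start at 4003752 and 1896 bp upstream of the start that RefSeq lists. Mus81 had only 540 and 691 fragments but 8 in the input (72.3), whereas its partner Eme1 had 1176 and 1129 over 22 (49.2). Gen1, which resolves Holliday junctions, had 1695 and 1756 over 35 (46.3), an input value that no gene of the 44 exceeded.

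The 5 genes Rad51b, Rad51c, Rad51d, Xrcc2 and Xrcc3, called the paralog group here, act in homologous recombination, and they had the lowest median of the 11 roles, 34.6. Only Xrcc2 of the 5 stood above the median of all genes, with 1681 and 1743 fragments over 21 and an enrichment of 76.6. Rad51b had the fewest ChIP fragments of all 44 genes, 289 and 377 over 17 (18.3). Rad51c had 724 and 918 over 22 (35.0) and Rad51d 706 and 841 over 21 (34.6). Xrcc3 had 1059 and 1132 over 35 (29.3), so its place among the 5 lowest enrichments went with an input that was the highest of the 44, shared with Gen1. Xrcc2 was above the other 4 in both replicates. The low place of the group held for the enrichment within 1 kb: at 2 kb Rad51d had an enrichment of 56.1, above the median of 36.4 over all genes, and by replicate 1 fragments every gene of the group but Rad51b exceeded the 695 of the median gene.

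The RAD52 group was small. Rad52, an annealing protein, had 1483 and 1513 fragments over 29 (48.5) and the translocase gene Rad54b 832 and 843 over 25 (31.4).

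The mismatch repair genes covered most of the range. Msh6, whose protein finds single-base mismatches, had 2432 and 2489 fragments over 17 of input and an enrichment of 136, the second highest. Msh3, which recognises larger loops, had 695 and 679 over 22 (29.3), among the 5 lowest. Pms1, a homologue of bacterial MutL, lay between them with 1363 and 1332 over 26 (48.7). The gap between Msh6 and Msh3 was far larger than that between the replicates of either.

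Among the end joining genes and ligases, Lig4 and Xrcc4, which seal broken ends as a complex, had 1757 and 1955 fragments over 23 (75.9) and 1324 and 1505 over 20 (66.5). The genes of the Ku heterodimer, which holds those ends, differed in fragments more than in enrichment. Xrcc6 had 2114 and 2173 over 27 (74.6) and Xrcc5 430 and 547 over 9 (51.0). Prkdc, the kinase recruited by Ku, had 817 and 868 over 29 (27.2), among the 5 lowest, and the replicative ligase gene Lig1 had 1106 and 1182 over 31 (34.6).

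The checkpoint genes signal that DNA is damaged. The kinase gene Atr had 1778 and 1865 fragments over 24 (71.3), and Chek1, which acts below it, 757 and 880 over 8 (96.2). Chek2 had about as many fragments as Chek1, 795 and 867, but over 26 of input, and an enrichment of 30.0. Mdc1, an adaptor at damaged chromatin, had 771 and 945 over 8 (101), and Trp53bp1, which shields broken ends from resection, 2250 and 2406 over 33 (66.3). The difference in enrichment between Chek1 and Chek2 came with similar ChIP fragments and a different input.

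**Figure D2:**
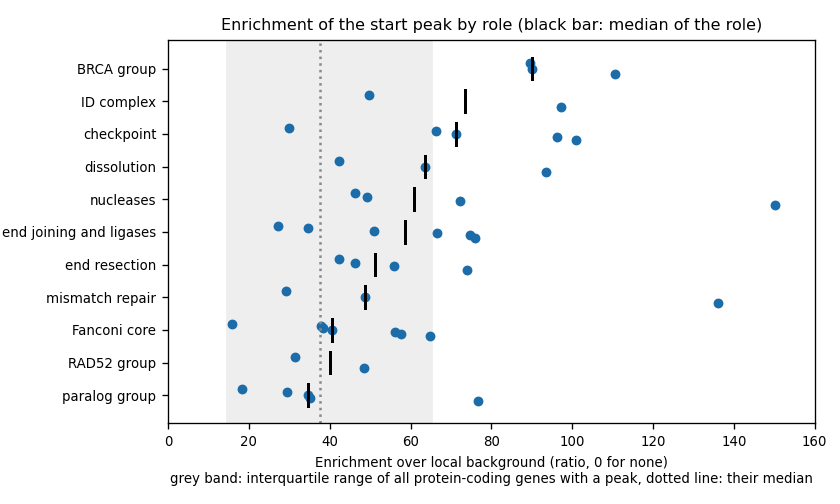
Enrichment over local background (ratio, 0 for none) of the start peak of each gene (points), by role in the order of the role medians (black bars), with the interquartile range of all protein-coding genes with a peak as a grey band (14.7 to 65.3) and their median as a dotted line (37.6). The 3 BRCA group genes with a centre within 1 kb lie at 89.6 to 111, without Brca1, and 4 of the 5 genes of the paralog group lie below the dotted line.

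The enrichment and the fragments gave a different order. Over the 44 genes the Spearman correlation of enrichment with ChIP fragments was 0.58, and with input fragments it was −0.47. All points come from the same 3 libraries. The enrichment is a ratio over a background that rests on the input too. Both signs, and high values at a low input, were therefore largely built in. Brip1, Mus81, Chek1 and Mdc1, each with 8 fragments in the input, had enrichments of 72.3 to 111, although their ChIP fragments in replicate 1 ran only from 540 to 876. Ranked by ChIP fragments alone, the median gene of the 44 stood at the percentile 64.8, close to the 64.5 by enrichment.

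The replicates were compared at each narrow peak by an exact two-sided binomial test of the replicate 1 fragments against the share of replicate 1 in the summed coverage, 48.0%, with Benjamini-Hochberg adjustment over all 101978 narrow peaks. The test compares these 2 libraries by counting error and no conditions. It called 0.804% of all narrow peaks and 4.24% of the start peaks of protein-coding genes, and 1 of the 44 genes. That gene was Fance, whose 957 and 855 fragments gave a replicate 1 share of 52.8% (exact 95% interval 50.5% to 55.1%) and a scaled ratio of 1.21, with an adjusted p of 0.00986 in the exact test. Over the 44 genes the log2 of the scaled ratio ran from −0.27 to 0.28 with an SD of 0.12, and 25 of them were above 0. The ratio rose with the number of fragments (Spearman 0.45 over the 44 genes of these 2 libraries), and Rad51b, the gene with the fewest, had the lowest ratio. With the replicates scaled by the median ratio over all narrow peaks instead, 7 of the 44 genes were called, Fance, Fancm, Rmi1, Eme1, Msh6, Pms1 and Xrcc6, as were 2.19% of all narrow peaks and 12.5% of the start peaks of protein-coding genes. The replicates ranked the genes nearly alike (Spearman correlation of fragments 0.97).

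**Figure D3:**
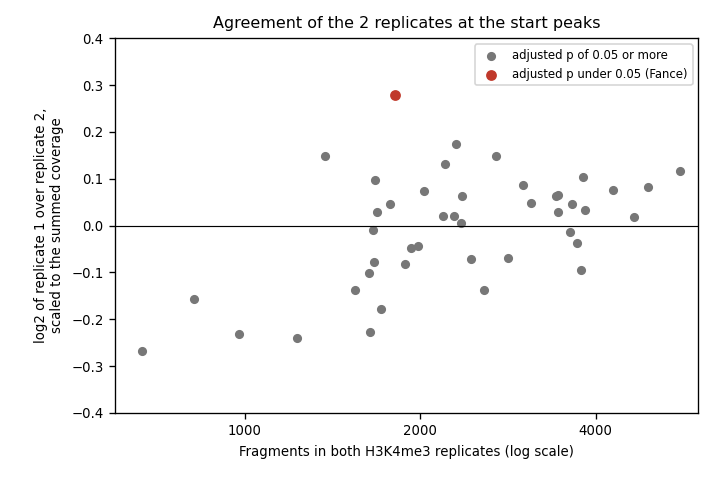
The log2 of replicate 1 over replicate 2 fragments, scaled to the summed coverage, against the fragments of both replicates (log scale) for the start peaks of 44 genes. All points lie between −0.27 and 0.28, and Fance (red) is the gene with an adjusted p under 0.05.

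The centres lay a median of 162.5 bp from the nearest start, and 33 of the 44 were within 250 bp (75%, against 69.8% for all protein-coding genes with a peak). They lay downstream of the start in 30 genes and upstream in 14, that is, downstream in 68.2%, against 77.4% over all genes with a peak. A start of another protein-coding gene on the opposite strand lay within 1 kb upstream of 17 of the 45 genes (37.8%), against 9.89% of all protein-coding genes. The distance was taken from the start nearest the centre that stands for the gene, or from the outermost start of a gene without one. This layout therefore depends in part on the peaks, and the 9.89% includes genes without a peak. The choice of genes did not use it. The other repair genes on the fixed list had such a neighbour in 12 of 39 cases (30.8%). The centre lay upstream of the start, towards the neighbour, in 10 of the 16 genes with a centre and such a neighbour, and 10 of the 14 upstream centres were at these genes, against 6 of the 30 downstream ones. Over all protein-coding genes with a peak, 28.4% of those with an upstream centre and 7.92% of those with a downstream one had such a neighbour.

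The distances between such starts were short. Lig4 and Abhd13 were 21 bp apart, Fancd2 and Emc3 30 bp, Eme1 and Mrpl27 47 bp, and Palb2 and Dctn5 56 bp. Rmi1 shares its start region with Hnrnpk, a gene for an RNA-binding protein, at 106 bp, and Rad51c with Tex14, a gene needed for the bridges between germ cells, at 111 bp. Gen1 and Smc6, itself a gene of chromosome repair, were 85 bp apart, and Prkdc and Mcm4, a subunit of the replicative helicase, 489 bp. The fragments at such a pair cannot be assigned to either gene.

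The broad peak that holds the standing centre had a median width of 3200 bp and a range of 1600 to 10200 bp over 43 genes, against a median of 3150 bp over 16636 protein-coding genes. Brca1 has no standing centre and that of Rmi1 lies in no broad peak, and for them the widest broad peak over a start was taken in what follows. Taking the widest broad peak over any start for every gene, the median of the 45 was 3200 bp and that of all genes 3400 bp. Over the 44 genes, width and enrichment had a Spearman correlation of 0.32. Another protein-coding start lay under the broad peak of 24 of the 45 genes (53.3%), against 20.8% of all genes with a broad peak. The 24 had a median width of 3300 bp and the other 21 one of 3100 bp, whereas over all genes the medians were 4900 bp with and 2800 bp without another start. Among genes with a narrow peak, the median enrichment of those sharing a broad peak (without Brca1) was 48.7, against 58.5 over all such genes, and that of the others 56.1, against 30.9.

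The widest peaks were shared with neighbours. The broad peak of Mus81, 10200 bp, ran from 7934 bp upstream to 2265 bp downstream of its start and covered a start of Cfl1, an actin regulator. The 8700 bp peak of Brca1 covered Nbr1, the 8300 bp peak of Mdc1 covered the tubulin gene Tubb5, and the 7700 bp peak of Top3a covered Smcr8. The widest of all, 12300 bp, lay over the outermost start of Xrcc6, but the strong centre of that gene lay in another broad peak of 5500 bp. Slx4 and Atr, each with 6700 bp, had no other protein-coding start under the peak. The narrowest belonged to Xrcc5 (1600 bp), Pms1 (1700 bp), Fanca and Nbn (1800 bp each), and of these 4 only Pms1 shared its peak.

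**Figure D4:**
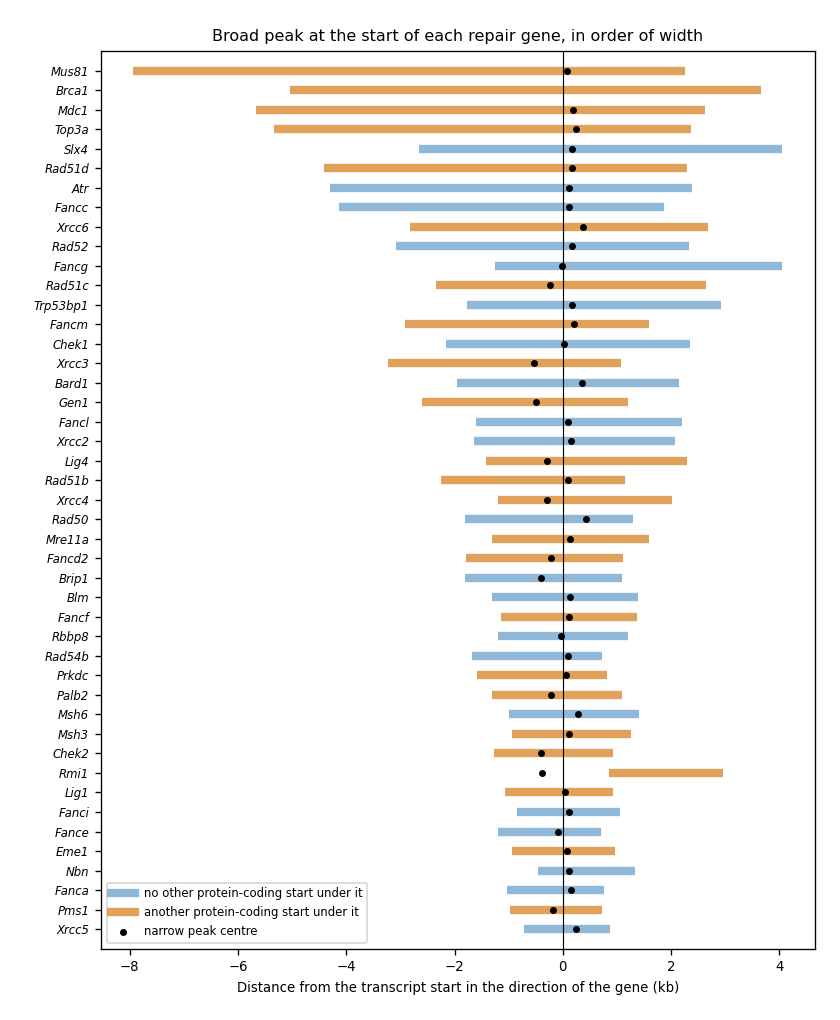
Broad peak at the start of each of the 45 genes (bars) as distance in kb from the transcript start in the direction of the gene, in order of width, with the narrow peak centre (points) and with the colour showing whether another protein-coding start lies under the bar. Mus81 (10200 bp) is at the top and Xrcc5 (1600 bp) at the bottom, the centre of Rmi1 lies outside its bar, and Brca1 has no centre within 1 kb.

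More than 1 narrow peak lay within 1 kb of a start in 9 of the 45 genes (20%, against 17.9% of all protein-coding genes). In 7 of them, Fancc, Fancg, Fanci, Xrcc2, Lig1, Xrcc6 and Trp53bp1, the further peaks were much weaker than the main one. Fancc had its strong centre at 63431554 of chromosome 13, within its annotated span, whereas the centre near its outermost protein-coding start had 30 and 42 fragments over 5 of input and an enrichment of 6.65, in no PRDM9-independent region. At Xrcc6 the centre near the outermost start had 61 and 83 fragments over 9 (7.40), against 2114 and 2173 at the main centre. A Lig1 centre at a start of a retained-intron transcript had 37 and 44 over 7 (5.31) and was PRDM9-dependent as well. Trp53bp1 had a further centre with 114 and 160 fragments over 9 (14.2) and Xrcc2 with 106 and 118 over 8 (13.0), both at processed transcripts. In Mus81 and Lig4 the further centres were strong, with 545 and 605 fragments over 16 (33.7) and 986 and 950 over 14 (65.0).

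Weak or missing peaks at minor starts were common. Of the 139 distinct starts of protein-coding transcripts of the 45 genes, 108 had a narrow centre within 1 kb (77.7%, against 68.5% over all protein-coding genes). Of the 89 starts of retained-intron transcripts 38 had one (42.7%, against 48.5%). So did 28 of the 62 starts of processed transcripts (45.2%, against 52.5%). For transcripts marked for nonsense-mediated decay it was 23 of 40 starts (57.5%, against 70.4%).

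The promoter windows gave features that the choice of genes did not use. RefSeq windows were matched by symbol for 36 of the 45 genes, 42 windows in all because some genes have several starts. No window was matched for Prkdc, Rad54b, Rad50, Xrcc2, Fancd2, Nbn, Rad51d, Rbbp8 and Top3a. The member windows held a median of 23 CpG, against 13 over the 21263 windows of protein-coding genes and 7 over all 32851 windows, with 60.2% G+C against 56.3% and 52.7%. The poorest in CpG were Fancl (3), Slx4 at its RefSeq start (4), the outermost Lig1 start (5), Mus81 (7) and Xrcc5 (9).

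Motif letters were searched on both strands. E2F factors switch on genes of DNA synthesis and repair before replication, and an E2F match was any of TTTCCCGC, TTTGGCGC, TTTGCCGC and TTTCGCGC. Such letters stood in 11 of the 42 windows (26.2%), from 10 genes, against 2.85% of the windows of protein-coding genes and 2.26% of all windows. The matches, in capitals, are shown with 20 bases on each side where the window allows, 5′ to 3′ on the strand of the gene, from RefSeq (GRCm38.p6).
Bard1 (chr1:71103154-71103201, minus strand): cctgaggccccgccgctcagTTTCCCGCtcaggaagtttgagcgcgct
Chek2 (chr5:110839811-110839858, plus strand): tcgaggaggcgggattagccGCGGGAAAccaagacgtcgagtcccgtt
Fancg (chr4:43010326-43010373, minus strand): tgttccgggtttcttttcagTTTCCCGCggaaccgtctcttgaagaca
Lig1 (chr7:13278832-13278875, plus strand): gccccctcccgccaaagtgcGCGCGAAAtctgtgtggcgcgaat
Mdc1 (chr17:35841462-35841509, plus strand): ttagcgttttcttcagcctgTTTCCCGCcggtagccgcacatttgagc
Msh3 (chr13:92355174-92355225, minus strand): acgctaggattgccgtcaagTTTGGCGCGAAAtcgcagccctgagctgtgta
Msh6 (chr17:87975045-87975092, plus strand): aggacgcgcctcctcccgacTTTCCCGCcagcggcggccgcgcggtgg
Rad51c (chr11:87404468-87404515, minus strand): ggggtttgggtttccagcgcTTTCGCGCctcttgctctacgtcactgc
Rad51c (chr11:87404932-87404979, minus strand): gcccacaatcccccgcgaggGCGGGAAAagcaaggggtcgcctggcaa
Rmi1 (chr13:58402603-58402646, plus strand): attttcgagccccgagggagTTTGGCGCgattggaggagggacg
Xrcc6 (chr15:82016303-82016350, plus strand): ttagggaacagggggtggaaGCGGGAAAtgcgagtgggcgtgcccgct

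Msh3 held 2 matches that share bases, and the others 1 each, with Rad51c matching at both of its listed starts. The match lay within 52 bases of the start in every one of these windows but those of Bard1 (209 bases before the start), Msh3 (202) and Chek2 (152). These are RefSeq starts, and the H3K4me3 centre lay 66 bp (Fancg) to 733 bp (Rmi1) from them. A window with a match is therefore not always the site of the peak. The letters TTTCCCGC and TTTGCCGC can share bases with an Sp1 match. The 10 genes with a match had a median enrichment of 69.7 and the other matched genes one of 49.8, but the range was wide, since Msh6 (136) and Mdc1 (101) carried a match and so did Msh3 (29.3) and Chek2 (30.0). Slx4, the highest of all, had no E2F letters in its RefSeq window or in the 300 bases around its peak.

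The ETS letters CCGGAAG were in 26.2% of the member windows, against 11.6% of the windows of protein-coding genes and 8.86% of all. The Sp1 letters GGGCGG were in 64.3% (46.2% and 35.7%) and the NFY letters CCAAT in 52.4% (38.2% and 37.4%), with 6 CCAAT matches in Xrcc3 alone. The TATA letters TATAAA were in 1 window, the RefSeq start of Slx4 away from the peak, that is 2.38% (12.6% and 13.6%). The MYB letters CAACTG or CAACGG were in 5 of the 42 windows (11.9%, against 17.3% and 18.1%) and the CHR letters TTTGAA in 3 (7.14%, against 16.0% and 17.9%). The NRF1 motif was found in 1 window, of Lig4 (2.38%, against 1.33% and 0.971%). The member windows were also richer in CpG and in G+C than the others, and the part of base composition in these shares was not tested.

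PRDM9-dependent peaks are those whose centre lies in none of the regions listed as PRDM9-independent, and 62533 of the 101978 narrow peaks were such. Inside the gene bodies, away from the starts of any gene by more than 1 kb, 23 of the 45 genes held at least 1 (51.1%), against 41.9% of all protein-coding genes. The 45 genes were longer, with a median body of 34.2 kb against 13.4 kb, and per length the order turned: 58 peaks in 2.85 Mb were 20.3 per Mb, against 27.6 per Mb over all protein-coding genes. Among bodies of at least 50 kb, 16 of the 18 members held such a peak (88.9%), against 89.5% of all such genes, with 21.4 against 25.6 peaks per Mb.

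Rad51b, with a body of 514 kb, held 17 of the 58 peaks (29.3%), or 33.1 per Mb. Over the 533 protein-coding genes with a body of at least 300 kb the median was 19.2 per Mb. Without Rad51b the other 44 genes had 17.5 per Mb. Xrcc4 held 0 in 312 kb, which allows a rate of up to 9.61 per Mb at a limit of 3 counts, and it was 1 of 5 among the 533 protein-coding genes with a body of at least 300 kb that held none (0.938%). Fancc had 6 in 179 kb, Prkdc 4 in 201 kb, and Rad50 and Fancl 3 each in 50.8 and 79.7 kb.

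These peaks were weak beside the start peaks. Their median enrichment was 3.61, against 2.79 over all PRDM9-dependent narrow peaks, and their median fragments were 13.5 and 16 over 4.5 of input. The highest enrichments rested on an empty input: Fancl had 18 and 14 fragments with 0 in the input (30.0) and Rbbp8 18 and 12 with 0 (28.1). Next came Rad51b with 11 and 20 fragments over 1 (14.5), Pms1 with 46 and 57 over 4 (11.99), a further peak of Rad51b with 49 and 62 over 5 (10.3) and Rad54b with 12 and 10 over 1 (10.2). The most fragments lay at a pair of Rad50 peaks, with 76 and 84 over 12 (6.14) and 69 and 90 over 9 (8.18). Fancc also had a pair of such peaks, with 51 and 61 over 9 (5.73) and 50 and 61 over 7 (7.33), and Xrcc5 had 50 and 60 over 7 (7.27).

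**Figure D5:**
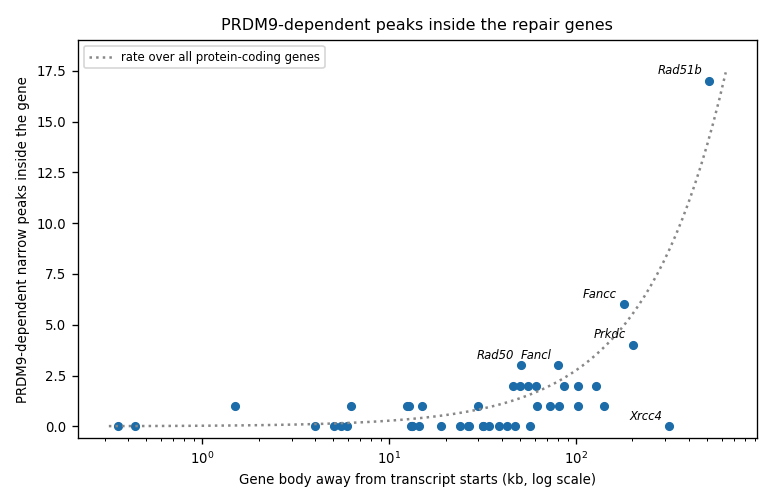
Number of PRDM9-dependent narrow peaks inside each of the 45 genes against the length of its body away from transcript starts (kb, log scale), with the rate over all protein-coding genes (27.6 per Mb) as a dotted line. Rad51b holds 17 peaks in 514 kb and lies above the line, and Xrcc4 holds 0 in 312 kb and lies far below it. The line includes short genes, and over protein-coding genes with a body of at least 300 kb the median was 19.2 per Mb.

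The libraries and the tissue were checked against known genes. Summed over all 101978 narrow centres, replicate 1 had 17621116 fragments, replicate 2 19094837 and the input 1250138. Germ cell markers had a start peak in 6 of 6 cases, with enrichments from 9.43 (Tnp1) to 113 (Sycp3). The 3 Sertoli cell markers (8.58 to 17.5) and the 3 Leydig cell markers (4.36 to 15) had peaks too, at enrichments under the repair genes other than Fanca, and of 5 genes of other tissues 0 had one.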

How the data were processed

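ChIP-seq for H3K4me3 was performed on whole adult testis, with 2 ChIP libraries and 1 input. Per the labels and the study's methods, the authors aligned read pairs to mm10 with BWA and Stampy, removed duplicates with SAMtools and called peaks on both replicates jointly with their own likelihood-ratio caller. The deposited counts are the fragments of each library over a narrow peak centre, without normalization. The deposited enrichment is the authors' maximum likelihood ratio to the local background, with 0 for no enrichment and imprecise where the input is low, and the deposited p-value is their likelihood ratio test, with narrow peaks kept under 1e-06 and broad bins under 1e-05. Broad peaks and PRDM9-independent regions hold positions only.

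Here, centres within 1 kb of any transcript start of a gene (GENCODE vM21) were assigned to it, and the centre of highest enrichment stands for the gene. All protein-coding genes gave the background. Every gene of the list is described, with fuller statements for the 5 highest and 5 lowest enrichments, the widest and narrowest broad peaks, genes with several start peaks, genes called different between replicates and the strongest PRDM9-dependent peaks inside genes. The members and all lists were chosen with earlier results of these data known. Some genes of the list of other repair genes are not reported here and were left out of its counts. No set test was run. The replicates were compared by exact binomial tests (scipy 1.17.1) with Benjamini-Hochberg adjustment (statsmodels 0.14.6), called at an adjusted p of 0.05. The test and the peak assignment were tested on simulated data. Intervals and limits cover counting error only, and the precision of single values follows from their fragment counts, since the enrichment has no error in the files. Alternatives were distances of 500 bp and 2 kb, protein-coding transcripts only, a caller p under 1e-10, the nearest peak, fragments instead of enrichment, other widths and other replicate scalings. Either replicate was also left out, without new peak calls. Promoter windows and genome sequence are from RefSeq (GRCm38.p6).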

Additional observations from a re-analysis of the deposited data

How the results depend on the processing

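The 44 genes with a narrow peak became 43 at 500 bp and 45 at 2 kb, where Brca1 entered with an enrichment of 50.6. The median enrichment of 53.5 became 56.0 at either distance and 50.4 with the nearest peak, where Xrcc6 dropped to a weak centre (1.28), and it stayed above the median of all genes under each of these choices (38.9, 36.4 and 32.7). The median percentile of 64.5 became 65.9 at 500 bp and 67.3 at 2 kb. At 2 kb Rad51b rose to 35.3 and Rad51d to 56.1. The median width of 3200 bp became 3400 bp with the widths over all starts summed, against 3700 bp for all genes, and was also 3200 bp with the broad peak that holds the standing centre (for Brca1 and Rmi1 the widest over a start), a choice added after the data were seen. Scaling the replicates by their median ratio raised the calls between them from 1 to 7 of the 44 genes and from 820 to 2236 of all narrow peaks, while the other scaling and a minimum of 50 fragments left 1 call, Fance (adjusted p of 0.0151 and 0.00538 in the exact tests).

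Peaks were not called again without replicate 1 or replicate 2. The joint peaks were kept where the remaining library had more fragments than the input. This left 44 genes with a narrow peak each time (77.1% and 76.8% of all protein-coding genes), a count that could hardly change so far above the input. The median percentile was 64.8 and 64.4, ranked by the remaining library's fragments over those of the input, not by the joint enrichment. Genes with a PRDM9-dependent peak inside numbered 22 and 23, against 23 (40.7% and 39.8% of all protein-coding genes). That count was 18 with a caller p under 1e-10, where 34.6% of all protein-coding genes held such a peak. No paired analysis was possible because the ChIP libraries are of 1 condition and the input carries no replicate number of theirs. The input holds only 8 to 35 fragments at these start peaks, which limits the precision of the enrichments.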
